A study of Homo sapiens with 9 samples.

Results

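Gene expression was compared in the human pancreatic carcinoma line MiaPaCa2, an established line, between 7 arrays of cells exposed to pancreatic stellate cell supernatant and 1 control array, which are 8 of the 9 Affymetrix arrays of the study. The exposed arrays were 1 for each harvest at 1, 2, 3, 4, 5, 6 and 7 h after addition of the culture supernatant of stellate cells that the labels call naive. The single control array was harvested at 24 h. The ninth array, of cells exposed for 24 h, belonged to neither side and served only in choosing probe sets and in the common fit.

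All arrays came from the same line, grown to 70% confluence, and with 1 array per group no value has a replicate. The title of the control array repeats the treatment wording of the exposed ones, and the labels do not say what was added to the control cells. The control was harvested hours later than the cells it was compared with, so that exposure, time in culture and cell density cannot be told apart in this comparison. Nor do the labels say how the supernatant was made or whether it was diluted. Values are log2 levels, in which a difference of 1 is a 2-fold change, differences are exposed minus control, and the error after ± is the standard error (SE) of the fit.

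Pancreatic stellate cells are the fibroblast-like cells that lay down the dense matrix of pancreatic tumours, and they release growth factors, proteases and cytokines that tumour cells respond to. Transcripts of the mitotic machinery rise late in each cell cycle, in G2 and M phase.

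The 12402 genes tested were the genes with a mean log2 level of at least 5, each read from its probe set with the highest mean. The control array stood somewhat apart from the others, with a median correlation of 0.991 with the other arrays over probe sets, and so did the 5 h array (0.991), whereas the remaining arrays reached 0.996 to 0.997. The probe sets at both ends of the ACTB transcript, which show RNA integrity and labelling, differed by 1.86 in the control, by 2.24 at 5 h and by 1.58 to 1.98 in the other hourly arrays. Epithelial carcinoma markers summed to 15799 to 17615 on the linear scale in the hourly arrays and to 15765 in the control, and EPCAM was the only marker of that list under the limit of 5. The part of RNA integrity in the results below was not tested.

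Of the 12402 genes, 1721 (13.9%) passed the limma test of the mean over 1 to 7 h against the control at an adjusted p under 0.05. The exposed arrays were higher for 726 genes (5.85%) and lower for 995 (8.02%). The median difference was 0.44 among genes that passed as higher and -0.47 among those that passed as lower, against -0.006 over all genes tested. The spread in this test came from the hourly arrays alone, and the lone control was assumed to vary as they do. An exact permutation over the 8 arrays cannot give a p below 0.125. The count fell to 1080 without the 3 h array and to 1119 without the 4 h array, and it rose to 2889 without the 5 h array. The split depended on the scaling: 1370 higher and 820 lower genes passed after a shift of all arrays to 1 median, and 1179 and 904 after a further quantile normalization.

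The difference was present in each of the 7 exposed arrays for nearly all of these genes. Of the 726 genes that passed as higher, 724 (5.84% of genes tested) were above the control in each hourly array, and 2 were not above it at 7 h. Of the 995 that passed as lower, 992 (8.0%) were below it in each hourly array, and 3 were not below it at 1 h. Since all 7 arrays were set against the same control value, a side shared by all of them was common: 6071 genes (49.0%) had it, 2793 above (22.5%) and 3278 below (26.4%). A stricter limit, a difference of at least 2-fold in each of the 7 arrays, left 13 genes above the control (0.105%) and 18 below it (0.145%).

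The 13 genes at least 2-fold above the control in each array were APOBEC3G, DHRS2, EMP1, IGFBP4, LYZ, MAP2, MMP1, PLAC8, ROBO4, SCD5, SLC7A11, TRIM4 and UGGT2. LYZ, which encodes the antibacterial enzyme lysozyme, had a level of 5.70 in the control and of 8.21, 8.10, 8.17, 8.01, 7.90, 8.07 and 8.14 at 1 to 7 h. Its difference was 2.38 ± 0.11 (SE; limma adjusted p = 6.31e-05), a 5.2-fold change, and the 1 h level was the highest of the 7. EMP1, an epithelial membrane protein, had the narrowest range of this group, from 1.31 to 1.44 above the control, with a mean of 1.40 ± 0.074 (limma adjusted p = 0.000135), though 1 of its probe sets gave 0.26.

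DHRS2, a short-chain dehydrogenase, was higher by 1.59 ± 0.11 (range 1.43 to 1.84), and MAP2, a microtubule-associated protein best known from neurons, by 1.60 ± 0.16 (range 1.33 to 1.99). PLAC8 was higher by 1.16 ± 0.067, and its exposed levels kept to 10.63 to 10.78 against 9.53 in the control. F2R, the thrombin receptor, was 0.97 above the control in its least different array, with a mean difference of 1.29 ± 0.15 (limma adjusted p = 0.00153). For ROBO4, TRIM4, UGGT2 and APOBEC3G, the other probe sets of the gene disagreed: they ranged down to 0.15, -0.33, -0.52 and 0.026, so that the values rest on 1 probe set each.

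The 18 genes at least 2-fold below the control in each array were C5, CCDC18, CENPE, CHI3L2, G2E3, KIF20A, KNL1, LOC100272217, MT1M, NAV2, NEURL1B, NIBAN1, PARD6G-AS1, PHACTR2, PSRC1, SGO1, SIAE and SPC24. Of these, CENPE, KIF20A, KNL1, PSRC1, SGO1 and SPC24 act in chromosome segregation. Outside mitosis, NIBAN1, a stress-inducible regulator of translation, was lower, at -2.24 ± 0.23 (range -2.61 to -1.97; limma adjusted p = 0.00117). Its exposed levels of 4.69 to 5.33 lay near the limit of 5, so that this difference is set against values near background. CHI3L2, a chitinase-like secreted protein, was lower, at -2.08 ± 0.26 (range -2.58 to -1.81).

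C5, the complement component that is cleaved to the anaphylatoxin C5a, had a level of 7.22 in the control and of 5.46 to 6.11 in the exposed arrays, with no overlap (-1.33 ± 0.19; limma adjusted p = 0.0037). NEURL1B, a ubiquitin ligase of the Notch pathway, differed by -1.45 ± 0.10. Of the noncoding transcripts, PARD6G-AS1 lay between -1.90 and -1.66 relative to the control, but its other probe set gave -0.11. LOC100272217 had 6.37 in the control and a mean of 4.95 in the exposed arrays, under the limit of 5, so that its difference of -1.42 is set against values near background. NAV2 was lower, at -1.97 ± 0.19, but another of its probe sets gave -0.031, and the mean over its probe sets did not pass (-0.24, limma adjusted p = 0.0542). The plot of these genes shows each exposed array against the control.

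**Figure D1:**
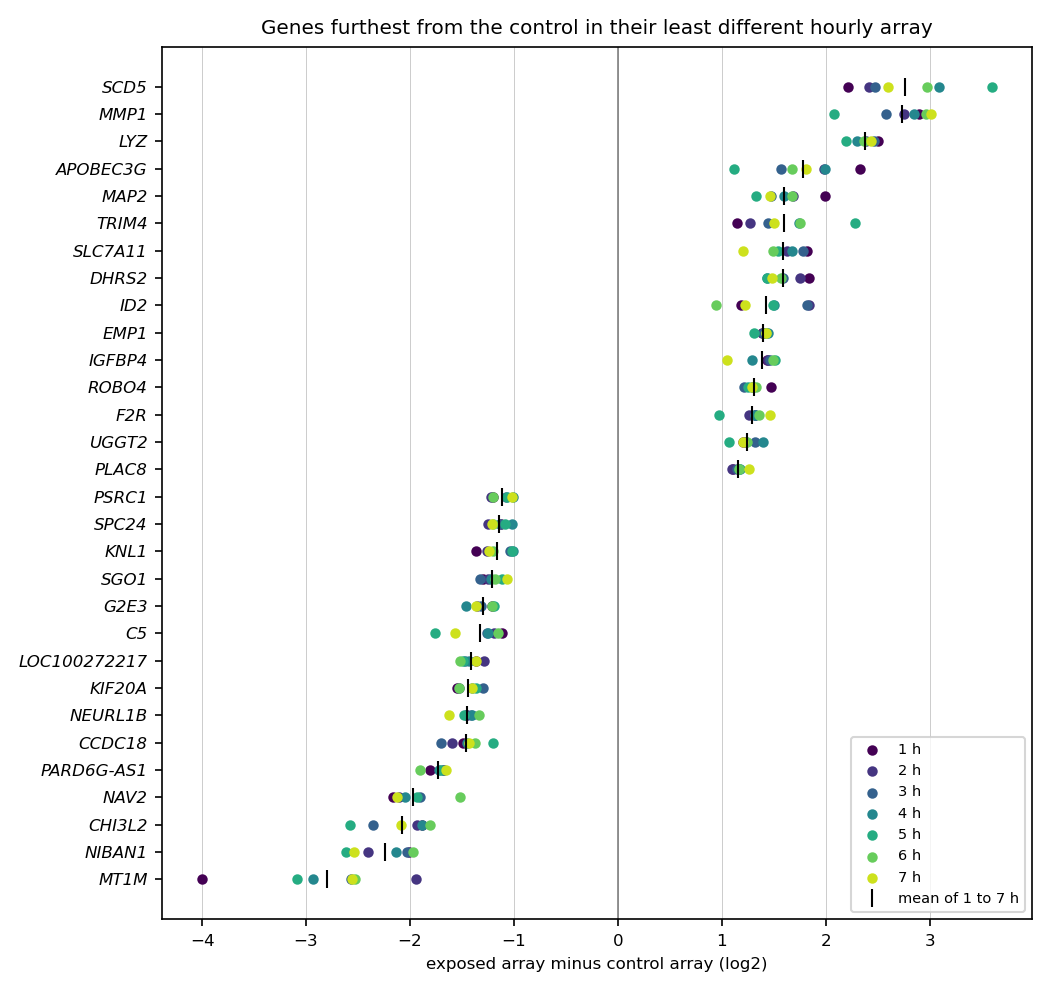
Difference between each of the 7 exposed arrays and the control (log2, x axis; points coloured by hour, black bar for the mean of 1 to 7 h) for the 15 higher and 15 lower genes that were furthest from the control in their least different array. In every row the 7 points lie on 1 side of 0, and MT1M and SCD5 have the widest ranges, from -4.002 to -1.94 and from 2.22 to 3.60.

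Genes of mitosis were the lower group with the most members. Over 8 lists of mitotic machinery, 139 genes were tested. Of these, 81 passed as lower and 0 as higher in limma (2 higher and 98 lower at an unadjusted p under 0.05). Among all genes 8.02% passed as lower and 5.85% as higher. The median difference of the 139 was -0.47 against -0.006 for all genes. Of the 139, 110 were below the control in each of the 7 arrays, against 26.4% of all genes. They included proteins that build the spindle, attach chromosomes to it and drive entry into and exit from mitosis. In RNA of whole cultures, fewer cells in mitosis and less of these transcripts per cell cannot be told apart.

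Mitotic kinesins, the motor proteins that sort and move spindle microtubules and chromosomes, were nearly all lower. Of 13 tested, 12 passed as lower and all 13 were below the control in each array, with a list median of -0.76 that stayed between -0.92 and -0.70 from hour to hour. KIF20A, needed for cytokinesis, had a level of 11.25 in the control and of 9.70, 9.72, 9.95, 9.85, 9.88, 9.72 and 9.85 at 1 to 7 h. None of the 7 levels came near the control, and the difference was -1.44 ± 0.10 (limma adjusted p = 0.000325), a 2.71-fold change. CENPE, the motor that carries chromosomes to the spindle equator, was lower, at -1.25 ± 0.14, the chromokinesin KIF4A at -1.07 ± 0.12 and KIF18A, which damps chromosome movement, at -1.02 ± 0.091. The exception was KIF22, at -0.33 (limma adjusted p = 0.0743).

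Of 26 kinetochore and centromere genes, 14 passed as lower, with a median of -0.50. KNL1, the scaffold on which checkpoint proteins gather, had a level of 9.84 in the control and of 8.48, 8.58, 8.81, 8.84, 8.83, 8.64 and 8.60 at 1 to 7 h, all of them below the control by over 1 (-1.16 ± 0.14; limma adjusted p = 0.00168; -0.64 with limma adjusted p = 0.142 in the filtered table). SPC24 and SPC25, partners within the microtubule-binding NDC80 complex, differed by -1.15 ± 0.10 and -0.77 ± 0.12, but a further probe set of SPC24 gave 0.16. The other members that passed were CENPA, CENPF, CENPI, CENPM, HJURP, NDC80, NUF2, OIP5, SKA1, SKA3 and ZWINT. The subunits that did not pass were largely those of the constitutive centromere network and the MIS12 complex, such as CENPC (0.061), CENPH (-0.15), CENPK (-0.072), CENPQ (-0.050), DSN1 (0.064) and MIS12 (-0.15).

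Among 12 genes of the spindle assembly checkpoint, 7 passed as lower (median -0.46). SGO1, the guardian of centromeric cohesion, stood at 6.57 in the control and at 5.27, 5.33, 5.25, 5.35, 5.46, 5.39 and 5.50 at 1 to 7 h, without overlap (-1.21 ± 0.076; limma adjusted p = 0.000223; -0.20 with limma adjusted p = 0.511 from the other probe set kept in the filtered table of the authors). Its relative SGO2 was lower, at -1.01 ± 0.089, and the checkpoint kinase genes BUB1 and BUB1B at -0.82 ± 0.10 and -0.78 ± 0.10. SGO2 lost the call in the filtered table (-0.75). BUB3 (-0.18), MAD1L1 (0.020) and ZW10 (-0.11), checkpoint genes whose products also serve outside mitosis, did not pass.

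Of 22 genes for mitotic entry, 14 passed as lower (median -0.58), among them CDK1, CCNA2, CCNB1, CCNB2, CDC25C, WEE1 and FOXM1. AURKA, the kinase of spindle poles, had a level of 12.19 in the control and of 11.08, 11.10, 11.28, 11.19, 11.34, 11.18 and 11.19 at 1 to 7 h, and no exposed array reached the control (-0.998 ± 0.10; limma adjusted p = 0.000995). Its activator BORA was lower, at -1.02 ± 0.10, PLK1 at -0.95 ± 0.086 and NEK2 at -0.88 ± 0.094. MASTL (-0.001), CDC25A (0.11) and MYBL2 (0.17) did not pass.

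Spindle and cytokinesis proteins had the lowest list median, -0.82, with 16 of 18 genes lower and all 18 below the control in each array. HMMR, which organises spindle poles, was lower, at -1.06 ± 0.11, PSRC1 at -1.11 ± 0.094, DEPDC1 at -1.001 ± 0.10 and SPAG5 at -0.98 ± 0.10. In the list of the anaphase-promoting complex, the ubiquitin ligase that ends mitosis, 8 of 17 genes passed as lower. They were mainly its activators, enzymes and targets, with CDC20 at -0.71 ± 0.088, UBE2C at -0.74 ± 0.089, UBE2S at -0.63 ± 0.081 and the separase gene ESPL1 at -0.51 ± 0.10. Core subunits such as ANAPC2 (-0.011), ANAPC4 (0.037), ANAPC5 (-0.068) and CDC16 (0.074) did not pass.

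In the list of condensin, cohesin and topoisomerase II, 8 of 17 genes passed as lower. The condensin genes NCAPG and SMC4 were at -0.78 ± 0.13 and -0.49 ± 0.088, and TOP2A was at -0.75 ± 0.10. Among cohesin genes SMC1A (-0.59 ± 0.11) and STAG1 (-0.32) passed as lower, and SMC3 (-0.021), RAD21 (-0.11) and STAG2 (0.067) did not pass. The mean over probe sets ended the calls of SMC1A (-0.18, limma adjusted p = 0.119) and SMC4 (-0.44, limma adjusted p = 0.0691). Of 14 centriole and centrosome genes, 2 passed as lower (median -0.19), against 8.02% of all genes. They were CEP192 at -0.50 ± 0.082 and CDK5RAP2 at -0.41 ± 0.092. The call of CDK5RAP2 ended in the mean over probe sets (-0.11, limma adjusted p = 0.4), after the shift to 1 median (0.0648) and after the quantile normalization (0.0549).

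Many genes of G2 and M phase carry the cell cycle genes homology region (CHR) in their promoters, an element bound by the MuvB complex, often with a CCAAT box upstream of it. The letters TTTGAA of the CHR and the letters CCAAT were looked for on both strands, from 250 bases before to 50 after the start of each gene in RefSeq (GRCh38.p14). TTTGAA was found in 15.6% of 27305 promoters and in 1007 of the 10049 promoters of genes tested. Of the 54 promoters of genes that passed as lower in the lists of kinesins, kinetochore, checkpoint, mitotic entry and spindle and cytokinesis, 38 held it (70.4%). Among all 75 tested members of those lists with a promoter, whether or not they passed, 44 held it (58.7%). CCAAT, found in 35.6% of all promoters and 36.0% of those of genes tested, was present in 41 of the 54 (75.9%).

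The 150 bases before the gene start of KIF4A (chrX:70289954-70290103, plus strand), HMMR (chr5:163460482-163460631, plus strand) and BUB1B (chr15:40160919-40161068, plus strand) are shown because each member passed as lower and has the CHR letters shortly before its start. Capitals mark TTTGAA and CCAAT on either strand, and the first base of TTTGAA or its complement lies at -34 in KIF4A, at -28 and -22 in HMMR and at -23 in BUB1B, counted from the gene start. The matches describe letters and do not show that a factor was bound.
KIF4A: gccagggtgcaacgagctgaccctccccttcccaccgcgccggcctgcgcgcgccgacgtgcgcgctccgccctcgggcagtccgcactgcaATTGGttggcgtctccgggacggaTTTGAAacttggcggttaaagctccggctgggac
HMMR: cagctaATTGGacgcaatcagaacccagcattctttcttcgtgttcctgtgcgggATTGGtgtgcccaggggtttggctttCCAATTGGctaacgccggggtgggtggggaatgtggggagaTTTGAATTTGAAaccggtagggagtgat
BUB1B: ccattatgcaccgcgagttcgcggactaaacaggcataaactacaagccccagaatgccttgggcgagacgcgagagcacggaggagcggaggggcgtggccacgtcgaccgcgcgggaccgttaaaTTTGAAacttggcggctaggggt

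The share was high in each of the 5 lists. Of promoters of members that passed as lower, TTTGAA was present in 9 of 12 kinesins (75.0%), 9 of 12 kinetochore genes (75.0%), 3 of 6 checkpoint genes (50%), 6 of 10 mitotic entry genes (60.0%) and 11 of 14 spindle and cytokinesis genes (78.6%).

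**Figure D2:**
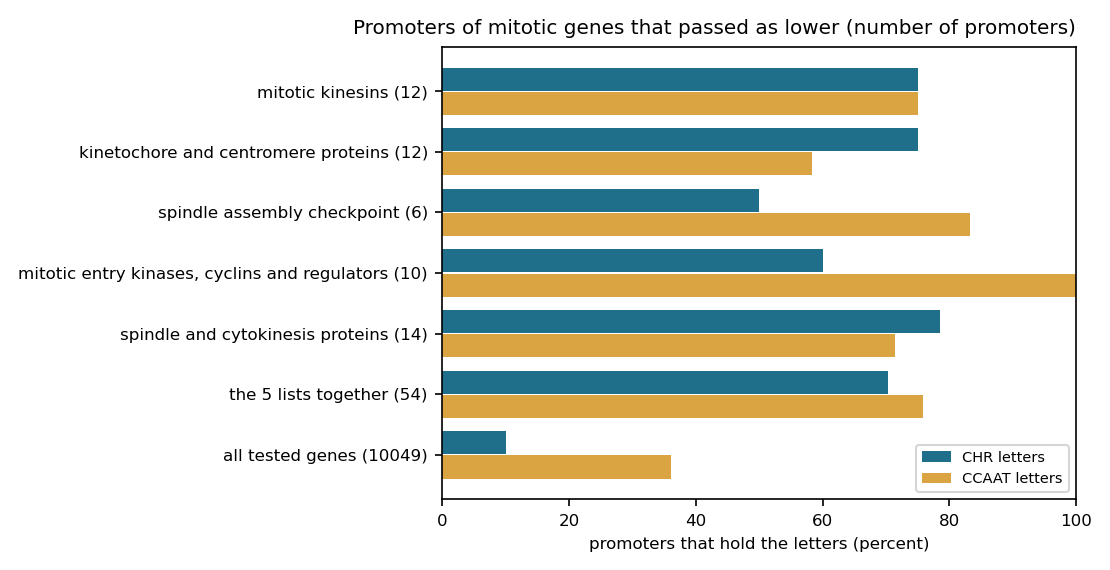
Percent of promoters (x axis) that hold the CHR letters or the CCAAT letters, with the number of promoters in brackets. Shown are the members of each mitotic list that passed as lower, beside the genes tested. CHR letters are in 50% to 78.6% of the promoters of the 5 lists, against 1007 of the 10049 promoters of genes tested.

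Genes of replication, repair and G1 had a median of -0.15 over 77 tested. Of the 77, 14 passed as lower and 1 as higher, against 8.02% and 5.85% of all genes. Of 26 genes for replication origins and helicases, 5 passed as lower. Their median difference was -0.42 at 1 h, -0.30 at 2 h, between -0.13 and -0.083 at 3 to 5 h, -0.025 at 6 h and 0.024 at 7 h. TIMELESS, a component of the fork protection complex, was lower, at -0.45 ± 0.077, whereas MCM10, which loads polymerase, gave 0.017 ± 0.10 and did not pass (limma adjusted p = 0.957). Of 26 genes for replicative polymerases and nucleotide supply 5 passed as lower (median -0.14), including POLA1, at -0.46 ± 0.12, which lost the call without the 1, 2, 3 or 4 h array. Of 14 genes for homologous recombination and Fanconi anaemia repair 3 passed as lower, FANCI at -0.65 ± 0.094, FANCM at -0.71 ± 0.16 and RAD54B at -0.63 ± 0.075.

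The G1 list of 11 genes had 1 member higher and 1 lower, both D cyclins. CCND1, which couples growth factor signals to the cell cycle, had a level of 8.57 in the control and of 8.99 to 9.28 in the exposed arrays (0.57 ± 0.11; limma adjusted p = 0.0118). CCND3 had 8.93 in the control and 8.34 to 8.65 in the exposed arrays (-0.40 ± 0.083; limma adjusted p = 0.0165), but the mean over its probe sets was -0.08 and did not pass. CCNE2 (0.34 ± 0.14) and ORC1 (0.46 ± 0.14), genes of the G1 to S transition, did not pass, with limma adjusted p of 0.147 and 0.0563.

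Of 52 tested genes of redox defence, metal handling and NADPH supply, 15 passed as higher and 2 as lower. The shares over all genes were 5.85% and 8.02%. Of 15 genes for glutathione, cystine and thioredoxin, 4 passed as higher, with a list median of 0.12. SLC7A11, the cystine transporter subunit that feeds glutathione synthesis, had a level of 6.42 in the control and of 8.24, 8.04, 8.20, 8.09, 7.96, 7.91 and 7.62 at 1 to 7 h. All 7 levels were at least 2-fold above the control, the lowest of them at 7 h, and the difference was 1.59 ± 0.11 (limma adjusted p = 0.000275). Its partner chain SLC3A2 was higher by 0.35 ± 0.076, thioredoxin reductase TXNRD1 by 0.37 ± 0.080, with other probe sets that lowered its mean to 0.18 (limma adjusted p = 0.173), and GCLM, the modifier subunit of the first enzyme of glutathione synthesis, by 0.47 ± 0.073.

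Of 9 aldo-keto reductase and carbonyl detoxification genes 5 passed as higher (median 0.27). AKR1C1 had a level of 10.39 in the control and of 11.28, 11.41, 11.60, 11.47, 11.78, 11.55 and 11.67 at 1 to 7 h, each above the control (1.14 ± 0.12; limma adjusted p = 0.00115). AKR1C2 gave 1.12 ± 0.12, but the sequences of these paralogs are nearly identical, and their probe sets may share signal. HMOX1, which degrades heme, had a level of 6.10 in the control and of 6.81 to 7.15 in the exposed arrays (0.89 ± 0.14; limma adjusted p = 0.00538), 1 of 3 genes that passed as higher among 9 for heme and iron. ME1 (0.80 ± 0.080) and TKT (0.39 ± 0.073), which supply NADPH and pentoses, were the 2 that passed of 9 in their list.

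Several of the redox genes are targets of the factor NRF2, which binds antioxidant response elements. The core letters TGACNNNGC, on either strand, were present in 13.5% of all promoters and in 15.4% of those of genes tested. They were found in 2 of 11 promoters of the glutathione list and in 1 of 8 of the aldo-keto reductase list. Among members that passed as higher, these were 2 of 3 and 0 of 5. The promoter of GCLM (chr1:93909431-93909580, minus strand, 150 bases before the gene start) is shown because it belongs to a member that passed, with the core at -34 in capitals on the complementary strand.
GCLM: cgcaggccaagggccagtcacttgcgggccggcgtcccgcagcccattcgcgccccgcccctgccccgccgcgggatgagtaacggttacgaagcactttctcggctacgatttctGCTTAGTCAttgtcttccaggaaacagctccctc

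Metallothioneins, small cysteine-rich proteins that bind zinc and copper, made up most of a list of 10. Of these 10 genes 2 passed as lower and 1 as higher (median -0.34), and 8 were below the control in each array, against 26.4% of all genes. MT1M had a level of 8.89 in the control and of 4.88, 6.94, 6.32, 5.96, 5.80, 6.36 and 6.33 at 1 to 7 h. All exposed levels were below the control, the 1 h level furthest and under the limit of 5, and the difference was -2.80 ± 0.54 (limma adjusted p = 0.0129), a 6.97-fold change. MT2A (-0.29 ± 0.10), MT1X (-0.41 ± 0.16), MT1E (-0.35 ± 0.13), MT1F (-0.50 ± 0.19), MT1G (-0.32 ± 0.16) and MT1H (-0.31 ± 0.12) were likewise below the control in each of the 7 arrays but did not pass, with limma adjusted p of 0.0758 to 0.208. These genes are near-identical copies, and their probe sets cannot be taken as independent. MTF1, the zinc-sensing factor that activates them, was lower, at -0.52 ± 0.10 (another probe set gave -0.029), and SLC39A10, a zinc importer, was higher by 0.95 ± 0.13.

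Of 55 tested genes of amino acid supply and the integrated stress response, 18 passed as higher and 2 as lower (median 0.14). Over all genes the shares were 5.85% and 8.02%. ATF4, the factor made when translation is slowed by amino acid shortage or other stress, had a level of 10.13 in the control and of 11.01, 11.03, 11.04, 11.06, 11.06, 10.94 and 10.97 at 1 to 7 h. All exposed levels were above the control and close to each other (0.88 ± 0.072; limma adjusted p = 0.000643). Of 17 cytosolic aminoacyl-tRNA synthetase genes 6 passed as higher (median 0.19), GARS1 by 0.67 ± 0.079, YARS1 by 0.58 ± 0.071, CARS1 by 0.40 ± 0.076 and SARS1 by 0.40 ± 0.074, with AARS1 and TARS1. In the mean over probe sets SARS1 turned to -0.04 and YARS1 lost the call (0.33, limma adjusted p = 0.216). FARSA (-0.20), FARSB (-0.045), HARS1 (-0.13) and RARS1 (-0.012) were among the 11 that did not pass.

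Of 12 genes for serine, one-carbon, proline and asparagine synthesis 5 passed as higher and 1 as lower. ASNS, asparagine synthetase, was higher by 0.94 ± 0.11 and CTH, which makes cysteine from cystathionine, had a level of 7.52 in the control and of 8.27 to 8.77 in the exposed arrays (1.08 ± 0.14; limma adjusted p = 0.00225). GOT1, the cytosolic aspartate aminotransferase, was lower, at -0.35 ± 0.070. Among 12 amino acid transporters 4 passed as higher, SLC7A11 included, with SLC38A2 at 0.28 ± 0.076 and SLC7A5 at 0.38 ± 0.090. SLC7A5 lost the call without the 2, 3 or 4 h array, and SLC38A2 lost it without the 1, 3, 4, 6 or 7 h array.

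Regulators of the integrated stress response were found on both sides of the control. Of 14 tested, 3 passed as higher (ATF4, TRIB3 by 0.51 ± 0.11 and CHAC1 by 0.36 ± 0.10) and ATF3 passed as lower, at -0.68 ± 0.16 with another probe set at 0.035. ATF3 lost the call in the mean over probe sets (-0.22, limma adjusted p = 0.229) and TRIB3 with no time term (0.0616). CHAC1 lost the call without the 1, 2, 3, 6 or 7 h array. The list median was 0.073. The letters TGATGNAA of the element that ATF4 binds with C/EBP factors were in 3.75% of all promoters and 1.75% of those of genes tested. They were present in 10 of 47 promoters of the 4 amino acid lists (21.3%) and in 2 of the 15 whose genes passed as higher (13.3%). The promoters of the 2 genes that passed as lower, ATF3 and GOT1, also held them.

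Of 18 genes for cholesterol synthesis and uptake 5 passed as higher, with a median of 0.26. In each array 12 were above the control, against 22.5% of all genes. INSIG1, which retains the sterol sensor in the endoplasmic reticulum and is itself a target of the sterol-regulated factor SREBP, had a level of 9.51 in the control and of 10.08 to 10.48 in the exposed arrays (0.88 ± 0.12; limma adjusted p = 0.0037). HMGCS1, the step before HMG-CoA reductase, was higher by 0.71 ± 0.12, MSMO1 by 0.61 ± 0.078 and DHCR7 by 0.55 ± 0.083. EBP (-0.032), ACAT2 (0.013) and PMVK (-0.19) did not pass. The sterol element letters TCACNCCAC were in 1.17% of all promoters, in 1 of 16 of the list and in 0 of the 5 whose genes passed as higher.

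The desaturase SCD5, 1 of 3 genes that passed as higher among 11 for fatty acid synthesis, had a level of 5.90 in the control and of 8.12, 8.32, 8.38, 8.99, 9.51, 8.88 and 8.50 at 1 to 7 h. It was above the control in each array, most at 5 h (2.77 ± 0.36; limma adjusted p = 0.00278), yet another of its probe sets gave -0.24. SCD, the main desaturase, was higher by 0.41 ± 0.10, a call that was lost without the 1, 2 or 3 h array. Of 24 genes for glycolysis and the hypoxia response 3 passed as higher and 1 as lower, against 5.85% and 8.02% of all genes. BNIP3L was at 0.63 ± 0.11, LDHA at 0.31 ± 0.085 and ENO2 at -0.55 ± 0.083. The glucose transporter SLC2A3 was the third higher call, at 0.64 ± 0.10, but its control level of 4.67 was under the limit of 5, and the call was lost in the filtered table of the authors (0.39, limma adjusted p = 0.249). The list median of 0.072 was close to that of all genes, and the call of LDHA was lost without the 2, 3, 4 or 6 h array.

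Over 12 lists of signalling genes, 29 of 169 tested passed as higher and 4 as lower, against 5.85% and 8.02% of all genes. Their median was 0.12 over the 169. Among 13 genes of ID and BMP signalling 4 passed as higher. ID2, which blocks DNA binding by helix-loop-helix factors, had a level of 7.44 in the control and of 8.63, 9.28, 9.27, 8.94, 8.94, 8.39 and 8.66 at 1 to 7 h, highest at 2 and 3 h and in every array above the control (1.43 ± 0.27; limma adjusted p = 0.0117). Its relatives ID1 (0.10 ± 0.085; limma adjusted p = 0.508) and ID3 (0.33 ± 0.16; limma adjusted p = 0.215) did not pass.

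BAMBI, a decoy receptor for TGF-beta and BMP ligands, was at 6.13 in the control and at 6.36, 7.02, 7.22, 7.23, 7.54, 7.45 and 7.39 at 1 to 7 h (1.05 ± 0.21; limma adjusted p = 0.0143, and 0.0837 with no time term). Its level was least apart from the control at 1 h. HES1, a Notch and BMP target, was higher by 0.97 ± 0.16. Of 14 genes in the TGF-beta list 4 passed as higher and 1 as lower: the matrix protein TGFBI differed by 0.80 ± 0.11, SKIL by 0.79 ± 0.22, and the ligand TGFB1 differed by -0.92 ± 0.21. TGFB1 had an adjusted p of 0.05 in limma without the 4 h array, and SKIL lost the call without the 2, 3, 4 or 6 h array.

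Immediate early genes, which serum and growth factors induce rapidly, had their highest median at 1 h. The median of 18 was 0.50 above the control at 1 h, 0.35 at 2 h, 0.009 at 5 h and 0.125 at 6 h, and 2 passed as higher. CCN1, a matrix-associated protein that is also a YAP target, had a level of 9.13 in the control and of 9.93 to 10.44 in the exposed arrays (1.17 ± 0.13; limma adjusted p = 0.00135). FOS had 4.33 in the control, under the limit of 5, and 6.77, 5.89, 4.97, 4.97, 4.59, 4.92 and 5.14 at 1 to 7 h, and its mean difference of 0.99 ± 0.46 did not pass (limma adjusted p = 0.183). EGR1 gave 0.24 ± 0.37 (limma adjusted p = 0.748). The median of 9 Kruppel-like factors ran from 0.43 at 2 h to -0.14 at 5 h, with KLF4 (0.47 ± 0.066) and KLF2 (0.41 ± 0.070) passing as higher. KLF2 lost the call with no time term (limma adjusted p = 0.147), and in the filtered table of the authors both lost it, KLF2 with 0.192 and KLF4 at 0.29 with 0.385.

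Of 12 YAP and TEAD targets 4 passed as higher (median 0.26), with NT5E, the ectonucleotidase CD73, at 0.77 ± 0.10 and another probe set at 0.051. The ERK list of 17 had 1 gene higher, the ETS factor ETV1 at 0.79 ± 0.11, and 1 lower. ETV1 lost the call with no time term (limma adjusted p = 0.114). The receptor list of 12 had AXL at 0.66 ± 0.073 (another probe set 0.19) and ERRFI1, a feedback inhibitor of the EGF receptor, at 0.36 ± 0.067. Of 12 NF-kB targets 0 passed in limma (4 higher and 0 lower at an unadjusted p under 0.05), and their median was 0.13.

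Of 12 genes for IGF receptors, substrates and binding proteins 2 passed as higher and 1 as lower. IGFBP4 and IGFBP2, binding proteins that hold IGF in the medium, passed on opposite sides, whereas IGFBP5 (-0.003), IGFBP6 (-0.047) and IGFBP7 (0.045) did not pass. IGFBP4 had a level of 7.26 in the control and of 8.70, 8.71, 8.73, 8.56, 8.78, 8.76 and 8.31 at 1 to 7 h, each over 2-fold above the control (1.38 ± 0.14; limma adjusted p = 0.00117). IGFBP2 had 6.01 in the control and 4.69 to 5.05 in the exposed arrays, all below the control (-1.05 ± 0.13; limma adjusted p = 0.00185). The exposed mean of IGFBP2, 4.96, was under the limit of 5, so that this difference is set against values near background. IRS2, the insulin receptor substrate that is transcribed when insulin signalling falls, was higher by 0.56 ± 0.12. TP53INP1, the member of the p53 list with the largest difference, was higher by 0.85 ± 0.14 and lost the call with no time term (limma adjusted p = 0.189).

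Interferon-stimulated genes were mixed, with 5 of 24 higher, 1 lower and a median of 0.12 that was -0.23 at 5 h. HERC5, the ligase that attaches ISG15 to proteins, had a level of 5.39 in the control and of 6.72, 6.85, 6.67, 6.602, 6.11, 6.68 and 6.51 at 1 to 7 h (1.20 ± 0.19; limma adjusted p = 0.00639). All its levels exceeded the control, the 5 h level least. ISG15 itself was higher by 0.67 ± 0.093 and OASL by 0.67 ± 0.14, whereas the RNA sensor OAS3 had 6.86 in the control and 5.87 to 6.00 in the exposed arrays (-0.90 ± 0.074; limma adjusted p = 0.000643). IFIT1 (0.077), IRF9 (-0.51) and PARP9 (-0.50), likewise interferon targets, did not pass.

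Matrix proteases and their inhibitors had the highest median of the functional lists, 0.35, with 6 of 15 higher. MMP1, the interstitial collagenase, had a level of 4.81 in the control and of 7.71, 7.56, 7.38, 7.66, 6.89, 7.78 and 7.82 at 1 to 7 h. The control was under the limit of 5 set for mean levels, near background, and every exposed array was above 6. The fitted difference was 2.73 ± 0.29 (limma adjusted p = 0.00135), which is not an exact fold, since it is set against a value near background. ADAM9, a membrane-bound sheddase, was higher by 0.66 ± 0.075 (another probe set 0.21), and PLAU, TIMP2, TIMP3 and ADAM17 passed as well. ADAM17 lost the call without the 2, 3 or 4 h array and TIMP3 without the 2, 3 or 7 h array. AP-1 letters TGAGTCA, the motif through which MMP1 is classically induced, were in 5.05% of all promoters and in 1 of 11 of the list. They were in 0 of the 3 promoters whose genes passed as higher.

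Among 17 collagen and basement membrane genes 4 passed as higher (median 0.13). COL6A3 had a level of 8.40 in the control and of 9.23 to 9.46 in the exposed arrays (0.94 ± 0.093; limma adjusted p = 0.00114). COL3A1 had 5.28 and 6.06 to 6.37 (0.94 ± 0.11; limma adjusted p = 0.00201), and COL1A1 did not pass (0.093 ± 0.14; limma adjusted p = 0.719). These collagens also mark stellate cells: the 15 stellate and fibroblast markers summed to 7521 to 8381 on the linear scale in the exposed arrays and to 5892 in the control. Of the 9 markers tested 4 passed as higher (median 0.34): COL3A1, COL6A3, COL1A2 (0.675) and RGS5 (0.336). Other probe sets of COL1A2 and RGS5 ranged down to -0.197 and -1.115, and both genes turned direction in the filtered table of the authors. DES, FAP, LUM, PDGFRA, PDGFRB and POSTN had a mean level below 5. The part of RNA from other cells in the collagen values was not tested.

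Leukocyte markers summed to 450 to 565 in the exposed arrays and to 240 in the control. LYZ, described above, was the member of that list that passed, and CD3E, CSF1R, HLA-DRA, ITGAM, MS4A1 and PTPRC had mean levels below 5. Endothelial markers summed to 240 to 264 against 211, with CDH5, CLDN5, KDR, TIE1 and VWF below 5. Of the 3 endothelial markers tested 2 passed as higher, EMCN (0.385) and TEK. Both lost the call in the mean over probe sets (0.28 and 0.30). Of 9 integrin subunits 2 passed as higher, ITGB4 by 0.74 ± 0.15 and ITGB8 by 0.73 ± 0.18, and both calls rested on the setting. ITGB4 lost it with no time term (limma adjusted p = 0.06), in the mean over probe sets (0.0568) and in the filtered table (0.0579), and ITGB8 with no time term (0.16), in the filtered table (0.0845) and without the 4 or 7 h array. Of 17 epithelial keratin and junction genes 1 passed as higher. The 7 tested genes of the mesenchymal state list had a median of 0.017, with 1 higher and 1 lower. The lower member was ZEB1, at -0.35, which turned to 0.07 in the filtered table, and the higher member was SNAI2. SNAI2, a repressor of epithelial genes, had a level of 3.95 in the control and of 4.64 to 5.62 in the exposed arrays (1.33 ± 0.26; limma adjusted p = 0.0135), so that its difference is set against a control under the limit of 5.

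Of 18 cytosolic chaperones and heat shock genes 7 passed as lower and 2 as higher, and the median was -0.23. In each array 13 were below the control, against 26.4% of all genes. CHORDC1, a co-chaperone of HSP90, had a level of 10.88 in the control and of 9.59, 9.602, 10.01, 9.83, 10.26, 10.05 and 10.13 at 1 to 7 h. The levels at 1 and 2 h lay furthest below the control and no level reached it (-0.96 ± 0.15; limma adjusted p = 0.00504). DNAJB4 was lower, at -0.79 ± 0.15, HSPA4L at -0.65 ± 0.10 and DNAJA1 at -0.58 ± 0.075, while DNAJB6 was higher by 0.60 ± 0.10. HSP90AA1 (-0.097), HSP90AB1 (-0.14), HSPD1 (-0.11) and HSF1 (-0.065) did not pass.

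The heat shock factor binds repeats of the letters nGAAn, searched here as TTCNNGAA, which reads the same on both strands. They were in 7.86% of all promoters, in 6.17% of those of genes tested and in 6 of 16 promoters of the chaperone list (37.5%). Among members that passed, they were in 2 of the 7 lower ones (28.6%) and in 1 of the 2 higher ones. The promoter of CHORDC1 (chr11:90223050-90223199, minus strand, 150 bases before the gene start) is shown because the gene had the largest decrease of the list, with matches in capitals at -55, -45 and -23.
CHORDC1: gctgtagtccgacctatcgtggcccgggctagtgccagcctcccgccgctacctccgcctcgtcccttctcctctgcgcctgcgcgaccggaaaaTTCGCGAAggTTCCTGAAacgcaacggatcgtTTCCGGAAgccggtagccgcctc

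Of 65 tested genes of RNA metabolism 2 passed as higher and 4 as lower, against 5.85% and 8.02% of all genes. Of 20 genes for endoplasmic reticulum folding 3 passed as higher, among them the chaperone HSPA5 by 0.40 ± 0.085, and CRELD2 was lower, at -0.47 ± 0.073. Of 27 proteasome genes 1 passed each way, and of 24 autophagy and lysosome genes 0 passed in limma (3 higher and 2 lower at an unadjusted p under 0.05). Of 26 ribosome biogenesis genes 0 passed in limma (0 higher and 3 lower at an unadjusted p under 0.05). Of 35 nuclear genes for oxidative phosphorylation 3 passed as higher, against 5.85% of all genes, with the complex I subunit NDUFS1 at 0.57 ± 0.068. Other probe sets of NDUFS1 disagreed: it was at 0.18 in the mean over probe sets (limma adjusted p = 0.372) and at 0.02 in the filtered table of the authors (limma adjusted p = 0.974).

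Among 29 histone methyltransferase and demethylase genes 5 passed as lower and 1 as higher. KMT2B was lower, at -0.59 ± 0.083 (limma adjusted p = 0.00374), but the mean over its probe sets was -0.14 and did not pass, and KMT2A (-0.73 ± 0.16), KMT2D (-0.65 ± 0.19) and NSD1 (0.37 ± 0.080) each had probe sets of opposite sign. KMT2D lost the call without the 1, 2, 3, 4 or 6 h array. Across the 57 functional lists, which held 909 tested genes, the median was below 0 in each of the 7 arrays for 16 lists and above 0 in each for 19.

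**Figure D3:**
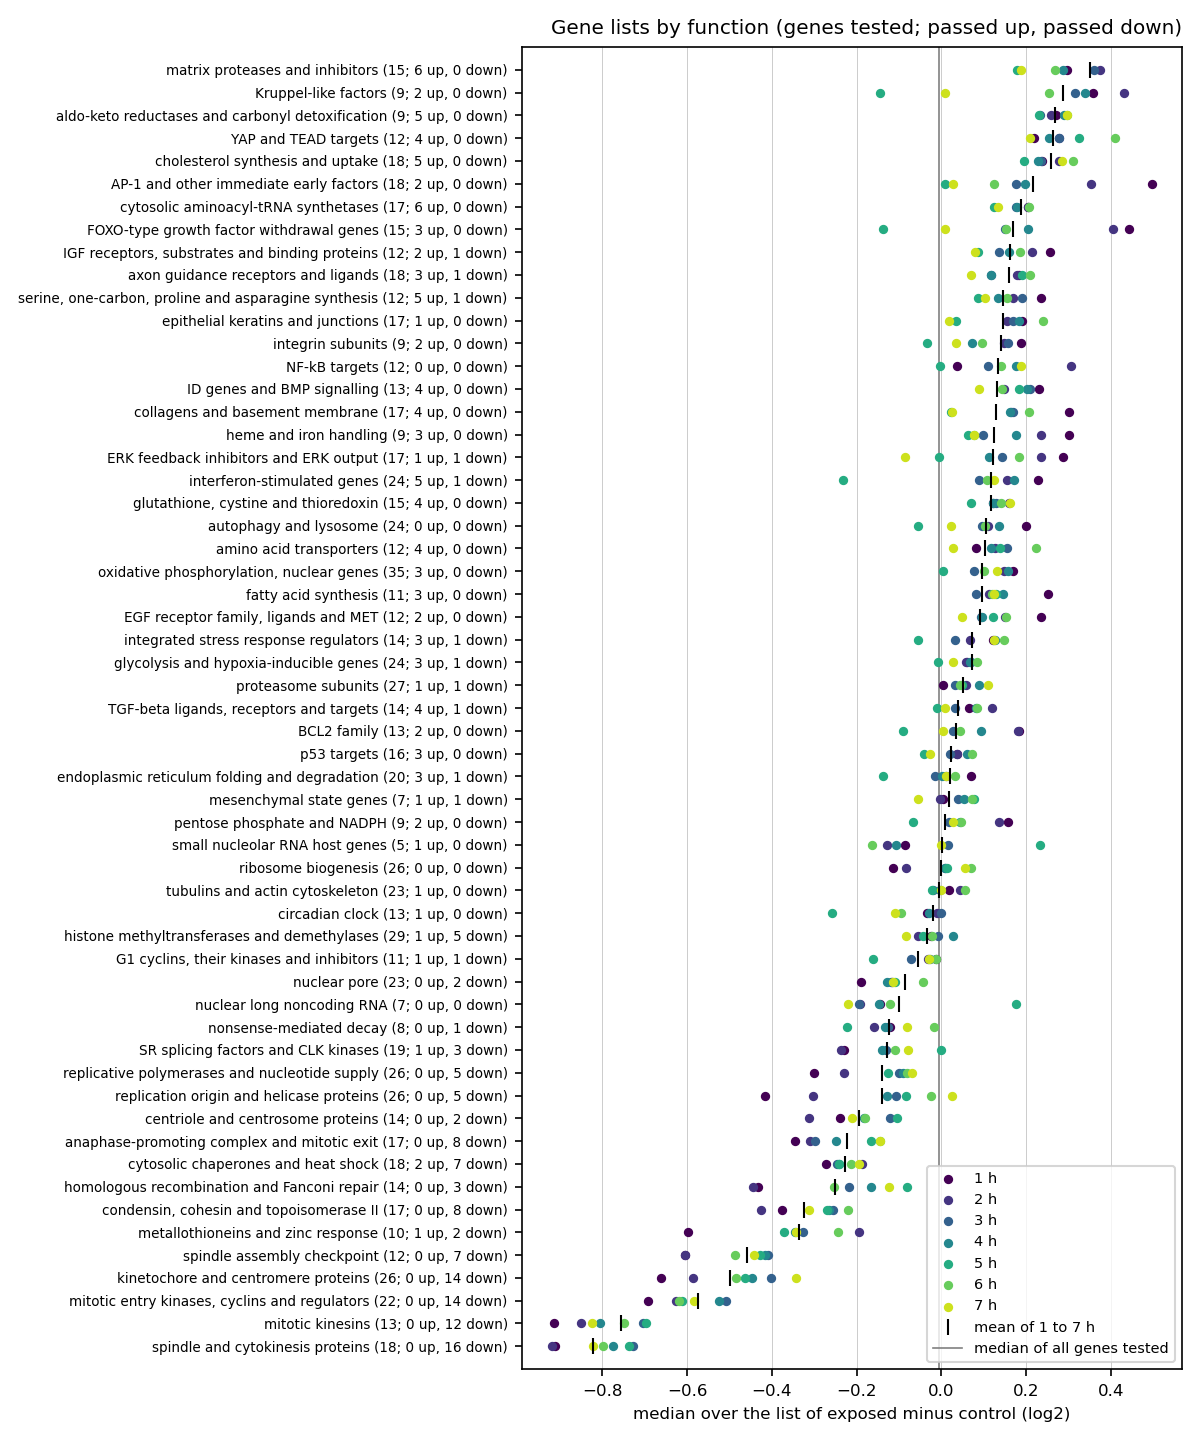
Median over each list of the difference between exposed arrays and control (log2, x axis), with a coloured point per hour and a black bar for the mean of 1 to 7 h; brackets give the genes tested and the numbers that passed up and down. Spindle and cytokinesis genes (-0.82) and mitotic kinesins (-0.76) lie furthest to the left, and the grey line marks the median of all genes tested, -0.006.

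**Figure D4:**
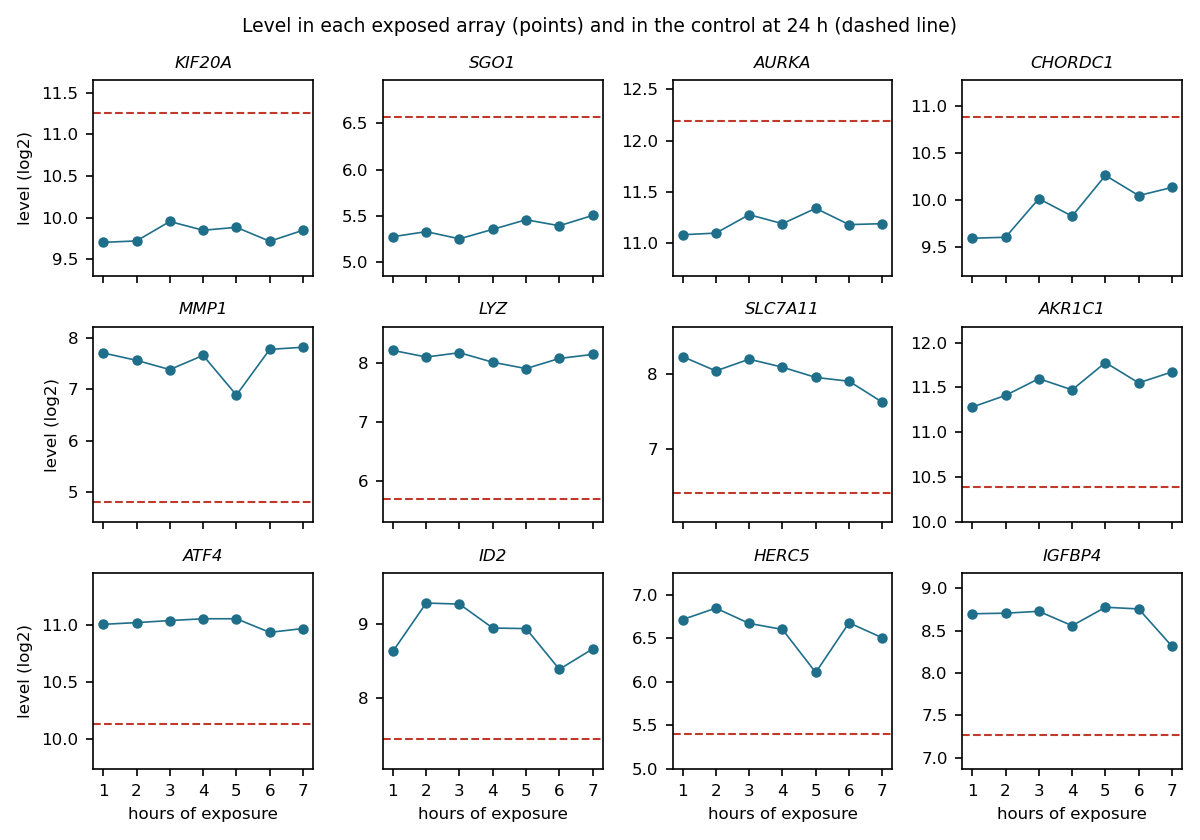
Level of selected genes (log2, y axis) in each exposed array (points, by hour on the x axis) and in the control at 24 h (dashed line), each panel on its own scale. In the panel of KIF20A the points lie between 9.70 and 9.95 under a control of 11.25, and in that of SLC7A11 they lie between 7.62 and 8.24 over a control of 6.42.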

How the data were processed

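Total RNA of MiaPaCa2 cells was hybridised to Affymetrix arrays, and groups and hours were taken from the labels. The values deposited are on the log2 scale and were made by RMA, per the submitters' processing notes. The sources used here give neither its version nor the chip definition. A filtered table of 6370 probe sets (3624 genes), likewise deposited, holds the same log2 values. Arrays carry no read depth, and their number limits the precision.

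Of 54675 probe sets, 41097 had 1 gene symbol in the platform annotation, 1801 several and 11777 none; the last 2 kinds were left out. Symbols were updated through a RefSeq table (GRCh38.p14, 41043 matched). Per gene (19777 in all) the probe set with the highest mean across the 9 arrays was used, and 12402 genes reached the minimum mean of 5 and were tested. No column was left unassigned.

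The two-sided test was run in limma 3.58.1 (lmFit, eBayes; R 4.3.3) with Benjamini-Hochberg adjustment across the 12402 genes and a threshold of 0.05, with terms for the centred hour, the 24 h exposed array and the control array, 5 residual and 3.72 prior degrees of freedom. The contrast was the mean over 1 to 7 h minus the control. P-values rest on the scatter between these arrays, which may be technical. The script was tested on simulated data.

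Members and gene lists were chosen with earlier results of these data known. Genes were named by rule: the 15 higher and 15 lower genes that passed with the largest difference in their least different array, and per list up to 4 members that passed in the main direction and 2 in the other. Members named beyond it, and the 31 genes at least 2-fold apart in each array, were picked once their values were known. Promoters came from RefSeq.

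Alternatives were array weights, a robust fit, other filters, the mean over probe sets, a further quantile normalization, a shift to 1 median, the filtered table, no time term, log2 time, a 1.5-fold limit and leaving out each hourly array. Python 3.11.15 with pandas 2.3.3, numpy 2.4.6 and matplotlib 3.10.9 made tables and figures.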

Additional observations from a re-analysis of the deposited data

Results flagged for a closer look

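Probe sets without a gene symbol were outside the comparison of genes, and a few of them stood apart from the control in each array. Of 3166 such probe sets with a mean log2 level of at least 5, 5 were at least 2-fold above the control in each of the 7 hourly arrays (0.158%) and 7 were at least 2-fold below it (0.221%). Among the 22504 probe sets with 1 symbol and the same minimum, 20 were above (0.0889%) and 29 below (0.129%). No test was made of these counts, and the transcripts behind them are unnamed here.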

How the results depend on the processing

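The direction of the call counts depended on the scaling. The main setting gave 726 genes higher and 995 lower (42.2% higher), a shift of the arrays to 1 median gave 1370 and 820 (62.6% higher) and moved the median of all genes to 0.056, and a further quantile normalization gave 1179 and 904 (56.6% higher). The authors' filtered table gave 162 genes, 60 higher and 102 lower, with fewer genes tested. Of the 511 main calls that it could test, 108 passed and 69 had the other sign. Leaving out 1 hourly array gave 1080 to 2889 genes, 422 to 1364 higher and 658 to 1525 lower. At least 2-fold apart in each array were 31 genes, 13 above and 18 below. This balance turned after the shift to 1 median and after the quantile normalization, each with 26 genes, 14 above and 12 below. The filtered table gave 20 with 11 below, the mean over probe sets 20 with 8 above, and no filter on the mean 38 with 25 below. Leaving out 1 array gave 31 to 45, with 13 to 19 above and 18 to 30 below. A 1.5-fold limit gave 216 genes, 68 above and 148 below. Of 185 genes named by the rule, 94 held the call in every alternative run, 79 lost it in at least 1 with the same direction and 12 turned. Not every gene could be run in every alternative. The filtered table held only part of the named genes, and there 34 held the call, 40 lost it and 9 turned. In the filtered table COL1A2 turned to -0.20, HSPA4 to -0.40, KMT2A to 0.10, KMT2D to 0.34, PHLDA1 to 0.51, PSMB7 to -0.82, RGS5 to -1.12, XBP1 to -0.74 and ZEB1 to 0.07. Genes that lost the call there with the same direction included SGO2 (-0.75), TOP2A (-0.96), ESPL1 (-0.41), CENPI (-0.30), TIMELESS (-0.46), FANCM (-0.85), RAD54B (-0.63) and DNAJB4 (-0.62). In the mean over probe sets NSD1 turned to -0.11, PSMB7 to -0.28, RGS5 to -0.07, SARS1 to -0.04, UGGT2 to -0.27 and XBP1 to -0.21. For the genes that turned, these tables read other probe sets of the same gene. No paired analysis was possible because each group holds 1 array and the labels carry no replicate numbers. The lone control limits every value: its own scatter was not measured.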

Other observations

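Genes for zinc finger proteins with the symbol ZNF and a number, many of which are transcriptional repressors with a KRAB domain, were looked at after the values had been seen. Of 341 tested, 50 passed as lower (14.7%) and 11 as higher (3.23%), against 8.02% and 5.85% of all genes, and their median difference was -0.10 against -0.006. Of the 341, 134 were below the control in each of the 7 arrays and 42 above it, against 26.4% and 22.5% of all genes. The members that passed included ZNF165 (-0.88), ZNF594 (-0.85), ZNF738 (-0.79) and ZNF248 (-0.77) among the lower and ZNF528 (0.76) among the higher. Long noncoding RNA genes stood near the background, with 41 of 693 higher (5.92%) and 45 lower (6.49%). Protein-coding genes had 672 of 11477 higher (5.86%) and 939 lower (8.18%).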
